A study of Mus musculus with 2 samples.

Results

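The 10 genes described here encode proteins of the complement system and receptors for the Fc part of IgG. They were taken by name from a list of C1qa, C1qb, C1qc, C3, C3ar1, C5ar1, Fcgr1, Fcgr2b, Fcgr3 and Fcgr4. The list was drawn up with earlier results of these data known. All 10 had an assembled locus of their own in both libraries, out of 14870 genes to which an assembled locus could be given in M or MR. RNA was sequenced from bone marrow cells of wild-type mice, as 1 library from cells given M-CSF (M) and 1 library from cells given M-CSF and RANKL (MR). M-CSF keeps macrophage precursors alive and growing, and RANKL is the cytokine that drives them to become osteoclasts, the cells that resorb bone. The study's culture method used M-CSF at 20 ng/mL in both conditions and RANKL at 100 ng/mL in MR. For MR the labels give 2 days with M-CSF followed by 2 days with both cytokines, whereas the culture method gives 3 days with RANKL. For M they also give 2 days followed by 2 days, with M-CSF alone as the treatment. The day on which RNA was taken for sequencing is not named, nor are the age and number of the mice. Both cultures started from unsorted bone marrow, so that cells of several kinds may be present in each. There was no replicate of either condition, so that no p-value was computed and each value describes these libraries.

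C1q is the recognition part of the classical complement pathway. It is built from A, B and C chains, which bind antibody complexes and dying cells, and macrophages are its main source. C3 is the protein on which the complement pathways converge, and its fragment C3a acts through C3ar1, as C5a does through C5ar1. Fc gamma receptors bind IgG on a cell or particle. Fcgr1, Fcgr3 and Fcgr4 activate the cell through the shared gamma chain Fcer1g, while Fcgr2b is inhibitory.

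The sequences that set these proteins apart are shown first, since the groups used below rest on what these proteins do. They were read from the coding transcripts of GENCODE vM21 on GRCm38, 5′ to 3′ along the coding strand. The C1q chains share a collagen-like stretch in which glycine recurs at a regular step (Gly-X-Y). The longest uninterrupted run had 16 such repeats in C1qa, 29 in C1qb and 16 in C1qc. The first 54 bases of each run are given, with glycine codons in capitals, from chr4:136896655-136896708 for C1qa, chr4:136882164-136882217 for C1qb and chr4:136890529-136890582 for C1qc, all on the minus strand.
C1qa: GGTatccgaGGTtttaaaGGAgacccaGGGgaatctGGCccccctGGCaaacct
C1qb: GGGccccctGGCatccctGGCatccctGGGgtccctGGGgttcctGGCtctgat
C1qc: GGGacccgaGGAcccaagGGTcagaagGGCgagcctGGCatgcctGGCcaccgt

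The inhibitory and activating Fc gamma receptors differ in their signalling motifs. The ITIM of Fcgr2b, which recruits phosphatases, was found at residue 317 of 340, and its codons are in capitals in the stretch at chr1:170961059-170961100 (minus strand). No ITAM, the motif that recruits the kinase Syk, was found in Fcgr1, Fcgr2b, Fcgr3 or Fcgr4, and 1 was found in Fcer1g. The codons of both tyrosine motifs of that ITAM are in capitals in a stretch that spans 2 exon pieces within chr1:171229889-171230072 (minus strand). The short ITIM pattern is not specific, and it also matched Fcgr1 at 3 places, Fcgr4 at 1 and Fcer1g at 1.
Fcgr2b ITIM: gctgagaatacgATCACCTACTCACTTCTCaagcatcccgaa
Fcer1g ITAM: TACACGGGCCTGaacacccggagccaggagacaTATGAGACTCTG

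Fcgr2b and Fcgr3 are close relatives with opposite roles, and whether reads could be told apart between them bears on both values. Their coding sequences were identical at 678 of 782 aligned bases (86.7%). The longest identical run was 129 bases, shorter than a read of 150 bases, so that no full-length read fits both coding sequences without a mismatch. Reads had been trimmed, however, and a read of 129 bases or fewer could fit both. How many reads were placed on the wrong gene of this pair was not measured. The other pairs of Fc gamma receptors shared 64.1% to 67.3% of their aligned bases. The stretches below, of 90 bases each, differ at the 1 base in capitals. They lie at chr1:170968014-170968103 in Fcgr2b and at chr1:171057725-171057814 in Fcgr3, both on the minus strand.
Fcgr2b: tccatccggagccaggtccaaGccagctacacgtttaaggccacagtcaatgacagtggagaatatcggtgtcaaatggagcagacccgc
Fcgr3: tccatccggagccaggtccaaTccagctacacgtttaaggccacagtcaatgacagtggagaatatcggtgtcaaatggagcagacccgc

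All 10 genes had a lower level in MR than in M. Levels are given as TPM, transcripts per 1000000, which are scaled for length and library size. Of the 10 genes, 9 (all but C3) had a log2 ratio of MR to M below -1, with 1 added to each TPM. Over all 13449 genes that had their own locus and reached a TPM of 1 in M or MR, 13.2% were below -1. Of the 10 genes, 8 were below -2, as were 3.87% of all genes. None of the 10 was above 1, whereas 21.3% of all genes were. The median log2 ratio of the 10 genes was -3.09, with a range from -4.49 to -0.97, and the median of all genes was 0.21. Together the 10 genes had 10360 TPM in M, or 1.04% of the library, and 965 TPM in MR, or 0.0965%. In bulk RNA, fewer cells of a type and less RNA per cell cannot be told apart.

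**Figure D1:**
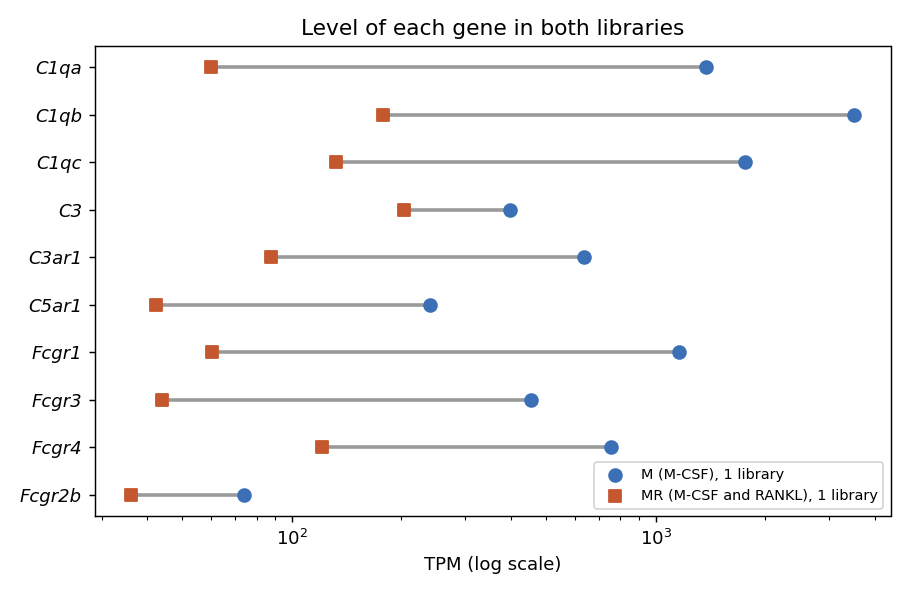
Level of each of the 10 genes in TPM (log scale) in M (blue circles) and MR (orange squares), with 1 library per condition. In every row the MR square lies to the left of the M circle, and the gap is widest for C1qa, from 1373 to 60.0 TPM, and narrowest for C3, from 398 to 203 TPM.

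The levels of the C1q chains were among the highest of any gene in M. C1qb, on chromosome 4 (136880129-136886187, minus strand), had 3516 TPM in M and 178 TPM in MR. It ranked 18 among the 13449 genes in M and 848 in MR. C1qc (136889804-136893065) had 1756 TPM in M and 133 TPM in MR, and C1qa (136895917-136898803) had 1373 TPM in M and 60.0 TPM in MR. The ratio of M to MR was 22.9 for C1qa (95% counting interval 20.3 to 25.8), 19.8 for C1qb (18.5 to 21.2) and 13.2 for C1qc (12.3 to 14.3). The counting intervals are Wilson intervals on estimated read pairs, and they do not cover the variation from culture to culture. These genes lie side by side on the same strand, each in a locus of its own, and 5.06% of the M level of C1qb was left in MR, against 4.37% for C1qa and 7.55% for C1qc.

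The chains did not keep the same proportions. C1qc made up 26.4% of the summed C1q TPM in M and 35.8% in MR, and C1qb 52.9% and 48.0%. C1qb had 2.002 times the TPM of C1qc in M and 1.34 times in MR. For C1qa the direction depended on the unit. Its share was 20.7% in M and 16.2% in MR by TPM, and 15.3% and 16.4% by the listed coverage, a read depth per base. In M the listed coverage of C1qa was 69.0% of the depth calculated from its FPKM. The larger share of C1qc in MR was present in both units, with 27.7% in M and 34.9% in MR by coverage.

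**Figure D2:**
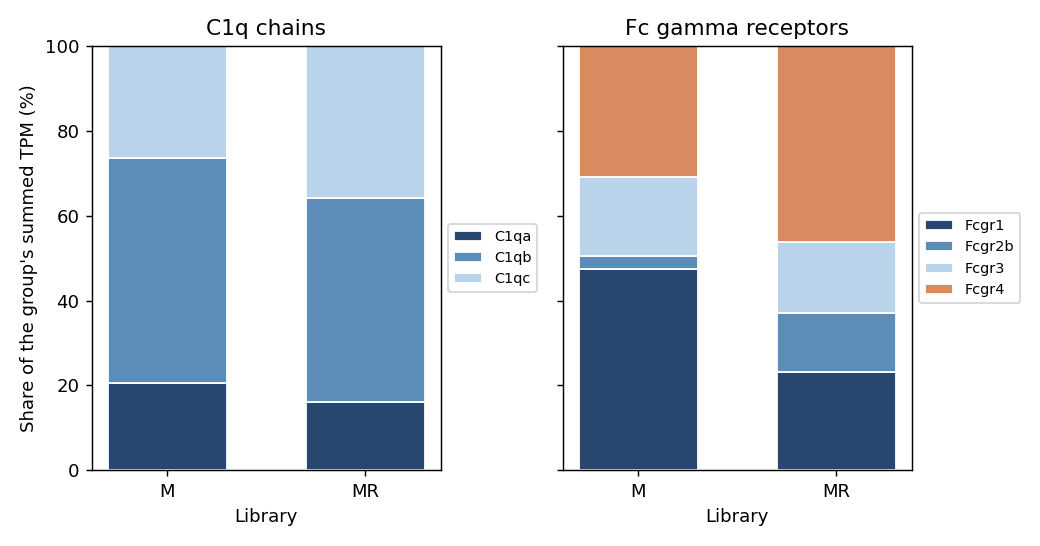
Share of the summed TPM (%) that each gene made up within the C1q chains (left) and within the Fc gamma receptors (right), in M and MR, with 1 library per bar. C1qc went from 26.4% to 35.8%, Fcgr1 from 47.4% to 23.2%, Fcgr4 from 31.0% to 46.2% and Fcgr2b from 3.03% to 13.8%.

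C3, on chromosome 17 (57203970-57228136, minus strand), had 398 TPM in M and 203 TPM in MR. This was 1.96 times more in M (counting interval 1.89 to 2.03), and 51.0% of the level was left in MR. Its log2 ratio of -0.97 did not pass -1 as computed, but did so under 4 of the 5 alternatives that alter its value, and it ran from -1.15 to -0.97. C3 was the only one of the 10 genes that changed sides at this threshold in those alternatives. It was eighth of the 10 by level in M and first in MR, where it made up 21.0% of their summed TPM, against 3.84% in M.

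The receptors of the complement fragments were lower by a larger factor than C3. C3ar1, the C3a receptor on chromosome 6 (122847138-122856161, minus strand), had 637 TPM in M and 87.7 TPM in MR, a ratio of 7.27 (6.91 to 7.65). C5ar1, the C5a receptor on chromosome 7 (16246743-16259540, minus strand), had 239.6 TPM in M and 42.4 TPM in MR, a ratio of 5.65 (5.12 to 6.22). Both receptors were thus far lower in MR, and C3ar1 remained the more abundant, with 2.66 times the TPM of C5ar1 in M and 2.07 times in MR. The level of C3 was 0.624 times that of C3ar1 in M and 2.31 times in MR, so that the order of the ligand precursor and its receptor turned over.

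The activating Fc gamma receptors were lower by factors that spanned a wide range. Fcgr1, the high-affinity receptor on chromosome 3 (96282909-96293969, minus strand), had 1158 TPM in M and 60.5 TPM in MR, a ratio of 19.1 (17.7 to 20.6). Fcgr3, a low-affinity receptor on chromosome 1 (171051174-171064935, minus strand), had 453.5 TPM in M and 43.9 TPM in MR, a ratio of 10.3 (9.11 to 11.7). Fcgr4, on the opposite strand of chromosome 1 (171018920-171029761), had 756 TPM in M and 121 TPM in MR, a ratio of 6.26 (5.77 to 6.78). Their counting intervals do not overlap. Fcgr1 was the most abundant Fc gamma receptor in M, with 1.53 times the TPM of Fcgr4, and in MR it had 0.501 times the TPM of Fcgr4. By coverage these ratios were 1.59 and 0.501.

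Fcgr2b, the inhibitory receptor on chromosome 1 (170958617-170976547, minus strand), had the lowest level of the 10 genes in both libraries. It had 74.0 TPM in M and 36.1 TPM in MR, a ratio of 2.05 (1.72 to 2.44). Its log2 ratio was -1.02, just past the threshold. The read pairs behind it were estimated as 449 in M and 173 in MR, the fewest of the 10 genes. These estimates rest on its shortest coding transcript, of 1084 bases, whereas its reference transcript has 3544 bases. A longer length would give more pairs and a narrower interval, so that the place as fewest depends on this choice. The balance of activating to inhibitory receptor RNA was different in the libraries. Fcgr1, Fcgr3 and Fcgr4 together had 2367 TPM in M and 225 TPM in MR. This was 31.97 times the level of Fcgr2b in M and 6.24 times in MR, or 34.2 and 6.57 times by coverage. For the close pair of Fcgr3 and Fcgr2b the ratio was 6.13 in M and 1.22 in MR, with reads placed on the wrong gene not measured.

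The gamma chain Fcer1g, which Fcgr1, Fcgr3 and Fcgr4 need to signal, was not one of the 10 genes. It had 2357 TPM in M and 822 TPM in MR, a ratio of 2.87 (2.74 to 2.999). The summed TPM of its receptor partners was 1.00 times that of Fcer1g in M and 0.274 times in MR. By coverage these values were 1.84 and 0.539, so that the size of the ratio depended on the unit but its direction did not. Other receptors also use this chain, and the gene encodes only 86 residues.

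**Figure D3:**
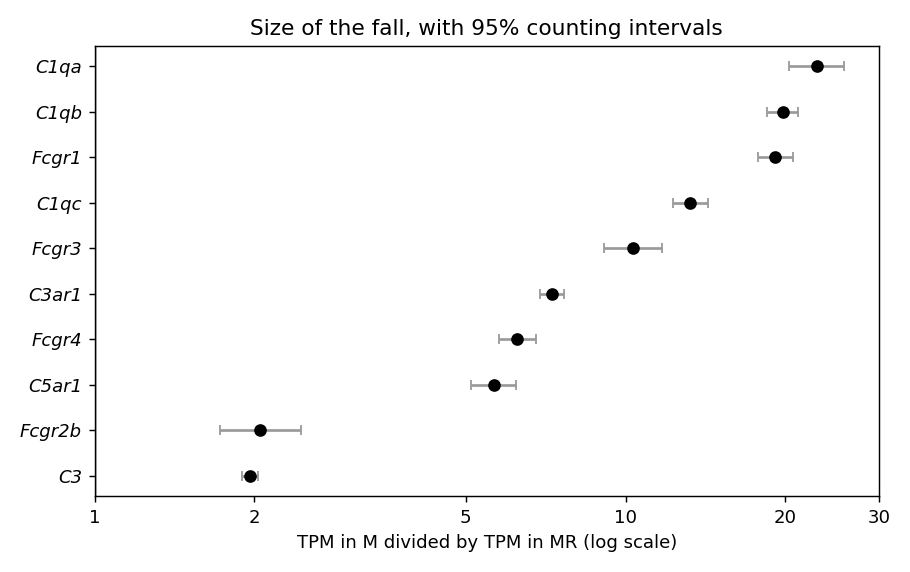
TPM in M divided by TPM in MR (log scale) for each of the 10 genes, ordered by size, with bars for the 95% counting interval of the ratio. C1qa, C1qb and Fcgr1 lie near 20, Fcgr2b and C3 lie at 2.05 and 1.96, and the bars cover counting error only.

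Ordered by the ratio of M to MR, the genes ran from C1qa through C1qb, Fcgr1, C1qc, Fcgr3, C3ar1, Fcgr4, C5ar1 and Fcgr2b to C3. Neighbours whose counting intervals overlap were C1qa and C1qb, C1qb and Fcgr1, Fcgr4 and C5ar1, and Fcgr2b and C3. All other neighbours were apart by more than counting error, which leaves out the variation between cultures, and that variation could not be measured here. By coverage C1qa came after C1qb and Fcgr1, with log2 ratios of MR to M of -3.99, -4.34 and -4.27. Counted from the lowest log2 ratio of MR to M, C1qa ranked 41 of the 13449 genes, C1qb 47, Fcgr1 49, C1qc 77 and Fcgr3 112. C3ar1 ranked 178, Fcgr4 230, C5ar1 283, Fcgr2b 1747 and C3 1836.

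The order of the levels was also different in each library. In M the order from the highest was C1qb, C1qc, C1qa, Fcgr1, Fcgr4, C3ar1, Fcgr3, C3, C5ar1 and Fcgr2b, at ranks 18, 51, 62, 70, 148, 203, 312, 354, 592 and 1887 of all genes. In MR it was C3, C1qb, C1qc, Fcgr4, C3ar1, Fcgr1, C1qa, Fcgr3, C5ar1 and Fcgr2b, at ranks 710, 848, 1158, 1284, 1770, 2514, 2539, 3335, 3424 and 3873. With 1 library per condition, which neighbours in level would keep their order in further cultures cannot be said.

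**Figure D4:**
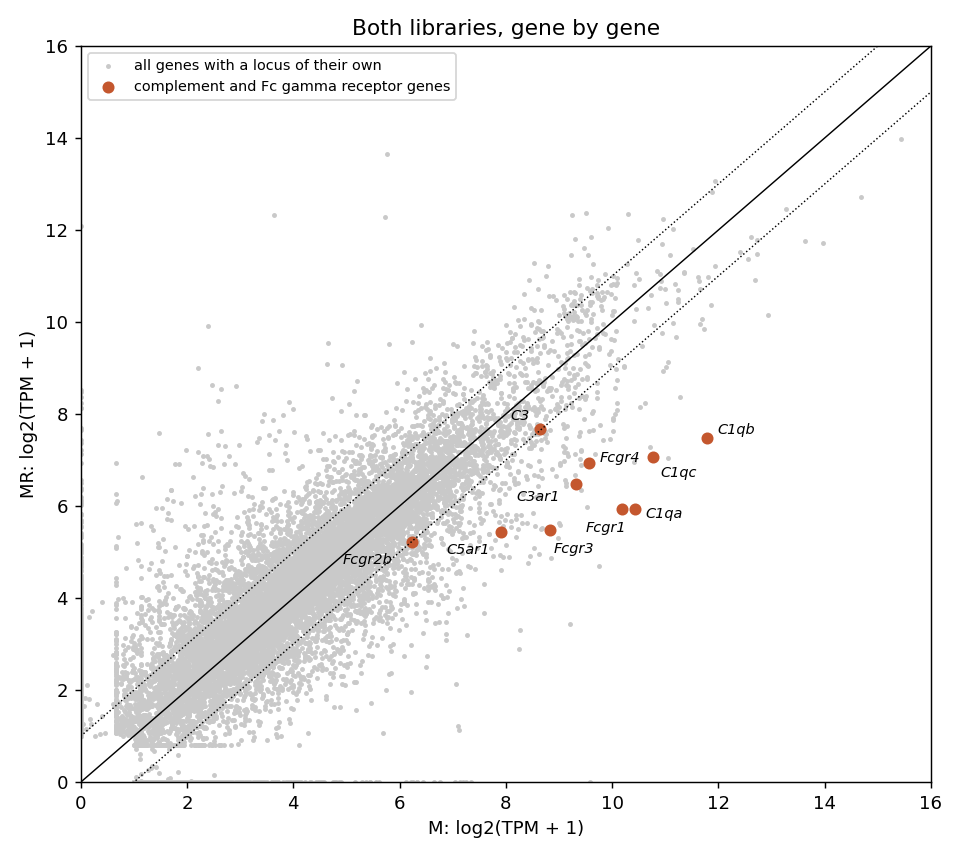
Level of every gene with a locus of its own as log2(TPM + 1) in M (horizontal axis) and MR (vertical axis), with 1 library each. Grey points are all genes, orange points the 10 complement and Fc gamma receptor genes, the solid line equal levels and the dotted lines a log2 ratio of 1 and -1. C3 and Fcgr2b lie at the lower dotted line, and the other 8 genes lie below it with log2 ratios from -4.49 to -2.47.

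Where each locus began and ended was compared between the libraries, since a shifted end could change a level. Each gene had 1 locus per library, and the 5′ ends were within 46 bases of each other for C1qb, C3, C3ar1, Fcgr1, Fcgr2b and Fcgr3. They were 73 bases apart for C1qa, 112 for C5ar1 and 143 for C1qc. For Fcgr4 they were 1219 bases apart, because the M locus began upstream of the annotated gene start and the MR locus 23 bases inside it. The Fcgr3 loci began 5539 bases inside the annotated gene in M and 5585 in MR, next to the RefSeq start whose upstream window is chr1:171059395-171059644. The loci of Fcgr2b held 59.8% of the annotated exon bases in M and 79.5% in MR, and their 3′ ends were 1108 bases apart. The 3′ ends were 654 bases apart for C1qc, whose M locus ran past the annotated end, and 273 for C5ar1. The other loci held between 80.7% and 100% of the exon bases. How much these ends moved the levels was not tested. Reads of 150 bases from the 10 genes had no identical copy in another gene's transcripts, except that 107 of 3395 such words of Fcgr2b (3.15%) also occur in Cplx2, Gm47409 or Rab3c.

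The sequence upstream of the genes was searched for motifs, because the 10 genes had lower levels together. Windows of 250 bases before and 50 bases after the RefSeq gene start on GRCm38.p6 were available for 9 of the 10 genes, all but C1qa. Both strands were searched. The core of PU.1, a macrophage and osteoclast factor, was searched as GAGGAA and found in C1qb, C1qc, Fcgr1, Fcgr3 and Fcgr4, that is in 5 of 9 genes, against 28.3% of 32851 promoter windows. The NFAT core TGGAAA was found in C1qc, C3, C3ar1, C5ar1 and Fcgr4, against 21.4% of windows, and the MAF core TGCTGA in C1qb, C3, C3ar1, C5ar1 and Fcgr3, against 19.5%. The ISRE, searched as GAAA repeated after any 2 bases, matched Fcgr4 alone, against 3.44%, and it overlapped the NFAT core match there. The AP-1 site TGANTCA matched C3ar1 alone, against 7.81%. No motif searched was found in Fcgr2b. A match describes letters in a window and not a bound site, and binding was not measured in these libraries.

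The upstream windows of C1qb and Fcgr1 are shown because both genes had a ratio near 20, with the PU.1 core in capitals, on the gene's strand and thus as their complements where a match lies on the other strand. They are at chr4:136886201-136886450 for C1qb and chr3:96293970-96294219 for Fcgr1, both on the minus strand. The PU.1 core begins at position -30 of C1qb and at -55 of Fcgr1, counted from the gene start. The last 30 bases before the start of C3ar1, at chr6:122856158-122856187 on the minus strand, are shown because the AP-1 match at -22 runs directly into the NFAT core match at -15, and both are in capitals.
C1qb: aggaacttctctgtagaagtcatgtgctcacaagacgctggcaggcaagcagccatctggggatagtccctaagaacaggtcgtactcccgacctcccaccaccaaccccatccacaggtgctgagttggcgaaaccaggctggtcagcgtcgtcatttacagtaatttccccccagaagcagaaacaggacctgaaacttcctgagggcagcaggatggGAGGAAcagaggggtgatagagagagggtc
Fcgr1: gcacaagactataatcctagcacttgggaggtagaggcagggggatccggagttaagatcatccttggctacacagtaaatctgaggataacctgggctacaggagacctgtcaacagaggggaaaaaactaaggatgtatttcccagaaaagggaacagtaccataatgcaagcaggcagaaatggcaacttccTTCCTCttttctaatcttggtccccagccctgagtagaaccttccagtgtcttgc
C3ar1: ttaagaggTGACTCATGGAAAggcccttcc

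The other genes of the complement system and of Fc receptor signalling had values on both sides. Of 74 such genes in 9 lists, 52 had a value, of which 14 had a log2 ratio below -1 and 9 above 1, beside 13.2% and 21.3% of all genes. Their median was -0.36, against -3.09 for the 10 genes. Of the classical pathway without the C1q chains, 2 of 4 genes with a value were below -1 and none above 1, with a median of -0.92. C4b, which is cleaved by the protease that C1q activates, had 37.0 TPM in M and 12.5 TPM in MR. Its MR value is a sum over fragments, and the longest locus alone had 2.98 TPM there. C1s1 had no locus in either library.

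In the alternative pathway, Cfp, or properdin, which stabilises the C3 convertase, had 366 TPM in M and 159 TPM in MR, a log2 ratio of -1.20. Cfb was enclosed in M by a locus of 727 TPM given to Gm20547, whereas in MR a shorter locus of 291 TPM was given to Cfb. Since these loci span different stretches, Cfb was given no value. C2 was enclosed by the locus of another gene in M, MR or both and was given no value either. Cfd had no locus. The lectin pathway was at low levels, with a summed 42.1 TPM in M and 43.8 TPM in MR over 5 genes with a value. Of these, 2 were below -1 and 3 above 1, beside 13.2% and 21.3% of all genes. Masp2, a lectin pathway protease, had 21.2 TPM in M, in a locus with 54.9% of its exon bases, and no locus in MR. Fcna, a ficolin, had 15.3 TPM in M and 33.0 TPM in MR. Of the 7 terminal pathway genes, C9 alone had a locus, with 1.51 TPM in MR and none in M. That locus was a fragment with 9.78% of the exon bases of C9.

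Of 7 other complement receptors with a value, 2 were below -1 and none above 1, beside 13.2% and 21.3% of all genes. Their median was -0.34. Cd93, a membrane protein once described as a C1q receptor, had 179 TPM in M and 39.3 TPM in MR, a log2 ratio of -2.16. C5ar2, a further C5a receptor, had 13.9 TPM in M and 3.06 TPM in MR, where its locus held 19.9% of its exon bases. Itgam and Itgb2, the chains of complement receptor CR3, gave a different picture. Itgam had 171 TPM in M and 135 TPM in MR, in a locus shared with another gene, and Itgb2 had 416 and 401 TPM.

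Many regulators of complement were at low levels, with a median of 4.98 TPM in M and 4.87 TPM in MR. Their median log2 ratio was 0.53, with 3 of 8 genes above 1 and 1 below -1, beside 21.3% and 13.2% of all genes. Serping1, above 1, had 2.49 TPM in MR and no locus in M. Cd46, below -1, had 1.78 TPM in M and no locus in MR. C1qbp, a mainly mitochondrial protein named for its binding of C1q, had 59.6 TPM in M and 189 TPM in MR, a log2 ratio of 1.65. The median of the regulators was thus above that of all genes, whereas the C1q chains and the fragment receptors had lower levels in MR.

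**Figure D5:**
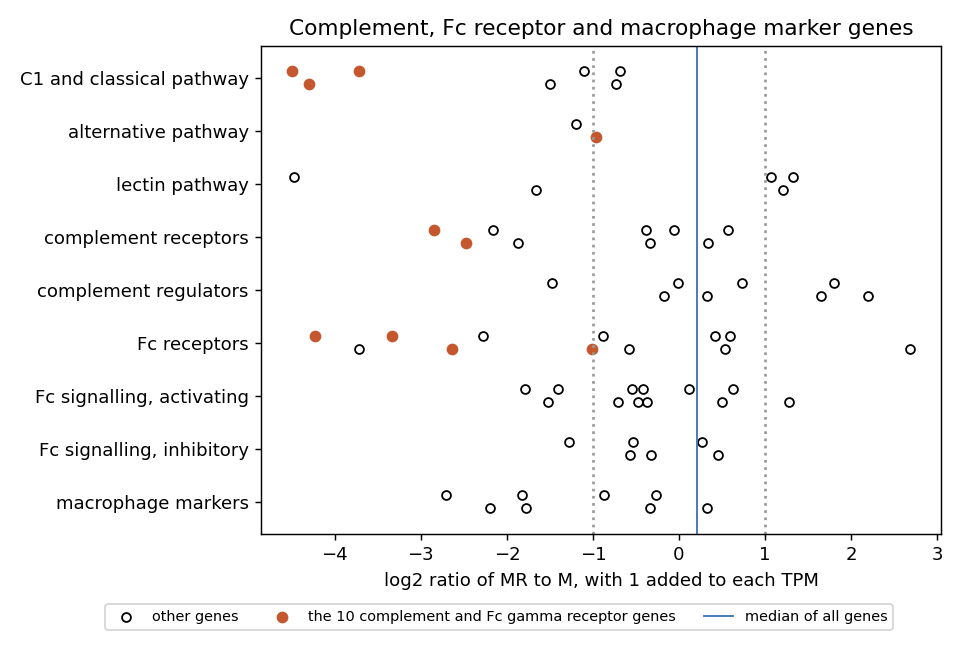
Log2 ratio of MR to M, with 1 added to each TPM, for each gene with a value in 8 lists of complement and Fc receptor genes and in the macrophage marker list, with 1 library per condition. Orange points are the 10 genes, open points the others, the blue line the median of all genes at 0.21 and the dotted lines -1 and 1. The terminal pathway is left out, since only C9 had a value.

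Among the other Fc receptors, 2 of 8 genes with a value were below -1 and 1 above 1, beside 13.2% and 21.3% of all genes. Their median was -0.08. Fcgrt, the neonatal Fc receptor that recycles IgG inside cells, had 50.04 TPM in M and 73.2 TPM in MR. Fcrls had 12.2 TPM in M and no locus in MR. Fcrlb had 1.19 TPM in M, in a locus with 15.9% of its exon bases, and 13.1 TPM in MR. The Fc gamma receptors on the cell surface and Fcgrt thus differed in direction, with no test of that difference possible here.

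Downstream of the activating receptors, 3 of 12 genes were below -1 and 1 above 1, with a median of -0.45. Of all genes, 13.2% were below -1 and 21.3% above 1. Besides Fcer1g, Lyn, a Src family kinase, was below -1, with 216 TPM in M and 81.3 TPM in MR. Fgr, of the same kinase family, had the opposite direction, with 10.8 TPM in M and 27.6 TPM in MR. Syk, the kinase that binds the phosphorylated ITAM, had 107 TPM in M and 116 TPM in MR. Of the 6 inhibitory signalling genes, Dok2, an adaptor, was below -1, with 37.1 TPM in M and 14.7 TPM in MR. Inpp5d, the phosphatase SHIP1 that acts through the ITIM of Fcgr2b, had 124 TPM in M and 99.2 TPM in MR. Thus Syk and Inpp5d had log2 ratios of 0.11 and -0.32, whereas the 4 Fc gamma receptors ran from -4.24 to -1.02.

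Cell type markers also differed between the libraries. Of 8 macrophage markers, 4 were below -1 and none above 1, beside 13.2% and 21.3% of all genes. Their median was -1.32, with a summed 20536 TPM in M and 7959 TPM in MR. Most of that sum was Lyz2, with 16035 TPM in M and 4535 TPM in MR, in a locus shared with another gene. The marker with the lowest log2 ratio was Mertk, a receptor for dying cells, at -2.70, and 6 of the 10 genes were lower than that. Lyz2, Adgre1 and Msr1 were also below -1, with 681 TPM in M and 148 TPM in MR for Adgre1 and 181 and 52.4 TPM for Msr1. Of the markers not below -1, Csf1r, the M-CSF receptor, had 697 TPM in M and 872 TPM in MR, and Cd68 had 2607 and 2171 TPM. In M, 5 of the 10 genes had a higher TPM than Csf1r, and in MR none had. All 8 osteoclast markers were above 1, with a summed 142 TPM in M and 24195 TPM in MR, and Oscar, Dcstamp, Ocstamp and Calcr had no locus in M. The part that the share of macrophages and osteoclasts had in the levels of the 10 genes was not tested.

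Fc gamma and complement receptors are also made by neutrophils and some other cells. The 9 neutrophil markers had a summed 1483 TPM in M and 968 TPM in MR, with 1 below -1, Csf3r. Of all genes, 13.2% were below -1. The megakaryocyte and erythroid markers had 519 TPM in M and 47.7 TPM in MR, most of it Pf4, with 505 and 38.4 TPM. Of 5 with a value, 2 were below -1, Pf4 and Hbb-bs, which had 1.24 TPM in M and no locus in MR. Itga2b, Gp9 and Hba-a1 had log2 ratios of -0.68, -0.12 and 0.002. The B cell markers had 19.6 and 9.81 TPM, and Ebf1 had no locus. The T and NK cell markers had 1.77 TPM in M and none in MR, with no locus for Cd3e, Cd3d, Cd3g, Klrb1c and Ncr1 in either library. Every lymphocyte marker was thus below the level of each of the 10 genes in the same library. The mast cell and basophil markers had 12.4 and 9.07 TPM, with no locus for Fcer1a and Ms4a2. The dendritic cell markers had 14.2 and 21.6 TPM, and the stromal markers 22.3 and 38.7 TPM. The part of these cells in the levels of the 10 genes was likewise not tested.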

How the data were processed

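Paired reads of 150 bases had been trimmed with Trim Galore, aligned to mm10 with HISAT2 and assembled with StringTie (GENCODE vM27) by the authors. The deposited tables hold coverage (signal per base), FPKM, and TPM, which is treated as a score because its whole column sums to more than 1000000. Entries with gene names carry GRCm39 positions and were not used. Each of the 19422 (M) and 19922 (MR) assembled loci, whose TPM sum to 1000000, went to the strand-compatible GENCODE vM21 gene that had most exon bases within the locus (50 or more). A locus covering at least 50% of another coding gene was shared. Genes inside another's locus had no value. TPM were summed per gene. The ratio of coverage to FPKM gave 3.63 (M) and 2.98 (MR) aligned Gb, from which read pairs of 300 bases and Wilson intervals (95%) were estimated with the shortest coding transcript. The 10 genes and all lists were chosen with earlier results of these data known. Named related genes passed the threshold with a TPM of at least 10, or were Fcer1g, Syk, Inpp5d, Fcgrt, Itgam, Itgb2 or Cd93, and some of these results are not reported here. Protein motifs were searched in translated coding sequences. Assignment was tested on simulated loci made from the spans of single annotated genes, which held no fragments or merged loci. Python 3.11.15, numpy 2.4.6, pandas 2.3.3, scipy 1.17.1, matplotlib 3.10.9 and Biopython 1.88 were used.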

Additional observations from a re-analysis of the deposited data

How the results depend on the processing

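Values were recomputed with FPKM, with coverage per aligned Gb, with a pseudocount of 0.1, without a filter, with a TPM of at least 10, with median-of-ratios scaling, after removal of mitochondrial genes and the 20 most abundant genes, with a threshold of 2, with no minimum of exon bases, with shared loci left out and with the locus with most exon bases alone. For the 10 genes, 5 of these alternatives changed a value, and all 50 changed values were below 0, of which 13 moved beyond the counting interval. The log2 ratio of C1qa ran from -4.67 to -3.99, the highest by coverage. The genes below -1 numbered 9 as reported, 10 by FPKM, coverage, median-of-ratios scaling and without the most abundant genes, and 8 were below -2. Median-of-ratios scaling moved the median of all genes by -0.17.

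With a TPM of at least 10, 1599 genes were higher and 981 lower over all genes, and with a threshold of 2, 956 and 520. Of the related genes, 5 were higher with a TPM of at least 10 and 5 by FPKM, and 2 were higher and 4 lower with a threshold of 2. The lectin pathway median of 1.07 turned to -1.70 with a TPM of at least 10, since fewer genes were left. No paired analysis was possible because each condition had 1 library, which also means that no replicate could be left out. Counting intervals leave out culture-to-culture variation, and those of Fcgr2b (1.72 to 2.44) and C3 (1.89 to 2.03) include a ratio of 2.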
